A study of Mus musculus with 6 samples.

Results

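Mouse embryos that had been microinjected as zygotes were compared with embryos that had not been injected, both collected at the 2-cell stage. The comparison used 6 of 6 libraries of the series: the 4 libraries labelled as injected, pooled whatever the mRNA, against the 2 non-injected ones. It covered the 26982 genes of the count table, of which 17638 had enough reads to be tested. Of the injected libraries, 2 came from embryos given Suv39h1wt mRNA and 2 from embryos given Suv39h1mut mRNA, in each case at 0.6 µg/µl and at the fertilisation cone stage, 18 h after hCG. The non-injected embryos received no mRNA, and all embryos were cultured in KSOM medium. Total RNA, 2 ng per library, was amplified linearly before sequencing. The labels give neither the mouse strain nor the change in the mutant. They also leave unsaid whether replicate libraries stem from different batches of embryos, so every p-value reflects the spread among the 6 libraries alone, which may be technical. A group injected with buffer or with an unrelated mRNA was not analysed here, so the act of injection and the presence of a Suv39h1 mRNA cannot be told apart.

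In the mouse, the 2-cell stage is when transcription from the embryonic genome begins on a broad scale and when most stored maternal transcripts are being degraded. A set of genes, among them the Zscan4 cluster, Obox genes and genes driven by MERVL retroviral elements, is transcribed briefly at this stage and then silenced. Production of ribosomes also starts anew, with genes for ribosomal RNA processing among those switched on from the embryonic genome.

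Gene counts came to 33.5 M and 36.4 M without injection and to 43.1 to 48.6 M with it. The difference in depth had an exact two-sided permutation p of 0.133, the smallest that the 15 possible splits can give. Between 18463 and 22349 genes had a read, and mitochondrial ribosomal RNA took 26.7% to 47.3% of gene counts, with both ranges set by injected libraries. Values below are CPM (counts per M reads, after TMM scaling), and each gene's values are given in the order non-injected 1 and 2, Suv39h1mut 1 and 2, Suv39h1wt 1 and 2. Markers of the 2-cell stage, of which 10 of 12 were among the counted genes, summed to 484 and 479 CPM in non-injected and 614 to 1068 CPM in injected libraries. Zfp352 was the largest part of each sum, at 199 and 268 CPM without and 351 to 593 CPM with injection. Obox3, Obox6, Tdpoz1 and Tdpoz3 overlapped between injected and non-injected libraries, and the other markers did not. The sum over 12 oocyte markers reached 1038 to 1949 CPM. Other cell types were read through longer lists and through a few defining markers. Cumulus and granulosa genes summed to 52.9 to 70.8 CPM, sperm and spermatid genes to 76.5 to 256 CPM and blood cell genes to 3.96 to 22.9 CPM, with injected and non-injected libraries overlapping in each. Their median log2 fold changes were 0.87 over 15 tested genes (11 positive), -0.40 over 7 and -0.25 over 9. Among the granulosa genes Amhr2 stood at 13.9 to 32.8 CPM and Serpine2 at 6.56 to 26.9 CPM. The defining markers were lower: those of cumulus cells summed to 3.28 to 8.74 CPM, of sperm to 0 to 1.91 CPM and of blood to 0.824 to 7.05 CPM. Of these, Foxl2 reached 6.75, Cyp19a1 4.19, Has2 4.09, Akap4 1.91 and Hba-a1 6.54 CPM in their highest library, while Fshr, Inha, Amh, Prm1, Prm2 and Ptprc stayed under 1 CPM in all. Blastocyst lineage markers summed to 3.90 and 5.88 CPM without and 8.22 to 33.5 CPM with injection, without overlap. Of them Gata3 and Sox17, both under 4 CPM in every library, did not overlap, while Cdx2, Gata6, Krt8 and Krt18 did. Krt18 made up 22.7 CPM of the highest sum, in Suv39h1wt replicate 2, and was at most 2.99 CPM elsewhere. The part of these markers in the results was not tested.

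Suv39h1, the histone H3 lysine 9 methyltransferase whose mRNA was injected (mm9 chrX:7638297-7651886), stood at 41.3, 35.0, 28.0, 41.6, 51.2 and 38.0 CPM. Both injected groups overlapped with the non-injected libraries, so the Suv39h1 count does not check the injection labels. Whether the injected mRNA carries the sequence counted for Suv39h1 is not given in the sources used here, and embryos are called injected below as their labels have it. The log2 fold change, injected over non-injected, was 0.06 ± 0.40 (SE), with an edgeR adjusted p of 0.979.

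No gene passed an adjusted p of 0.05 in edgeR's quasi-likelihood test (0 of 17638, 0% called). The smallest adjusted p was 0.652, and it is the adjusted p of each gene discussed below with an unadjusted p under 0.003. At an unadjusted p under 0.05 there were 688 genes higher in injected embryos (3.90% of those tested) and 628 lower (3.56%). With the libraries fitted as 3 groups and the injected ones averaged, the balance turned, with 472 higher and 742 lower. All 4 injected libraries lay above both non-injected ones for 1515 genes (8.59%) and below both for 1494 genes (8.47%). DESeq2 called 136 genes higher and 73 lower of 14839 with an adjusted p (0.917% and 0.492%). A fit chosen after seeing the data, edgeR over genes of at least 10 CPM with the library number as a block, called 141 genes higher and 95 lower of 6818 (2.07% and 1.39%). That fit is called the blocked fit below.

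**Figure D1:**
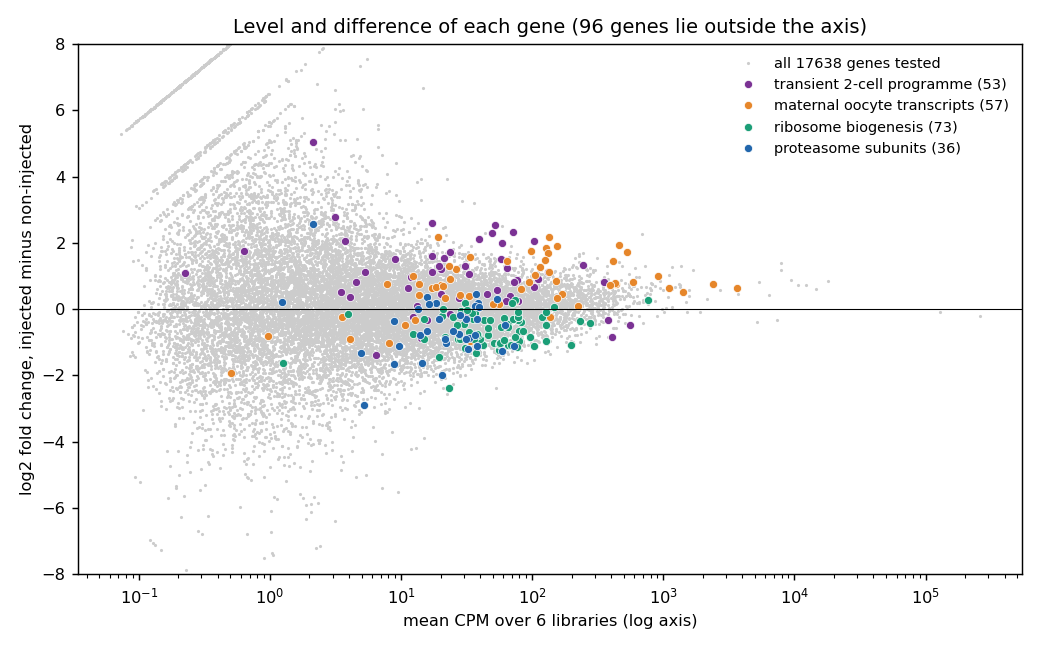
Log2 fold change of injected over non-injected embryos (vertical axis, edgeR) against mean level (horizontal axis, CPM on a log scale), one grey point per gene tested, with members of 4 gene groups in colour. None of the 17638 genes passed an adjusted p of 0.05; the genes outside the vertical axis number 96.

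Across gene groups, members of the transient 2-cell programme and stored oocyte transcripts lay on the higher side in injected embryos, and members of ribosome biogenesis, ribosomal protein, proteasome and translation factor groups on the lower side. The median log2 fold change was 0.96 over 53 tested members of the transient 2-cell programme and 0.74 over 57 maternal oocyte transcripts. It was -0.68 over 73 ribosome biogenesis factors and -0.65 over 36 proteasome genes, against 0.09 over all genes tested. None of these members passed an adjusted p of 0.05 in edgeR over all genes tested, and the calls of the blocked fit are given with each group. The groups are described by their counts and medians.

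**Figure D2:**
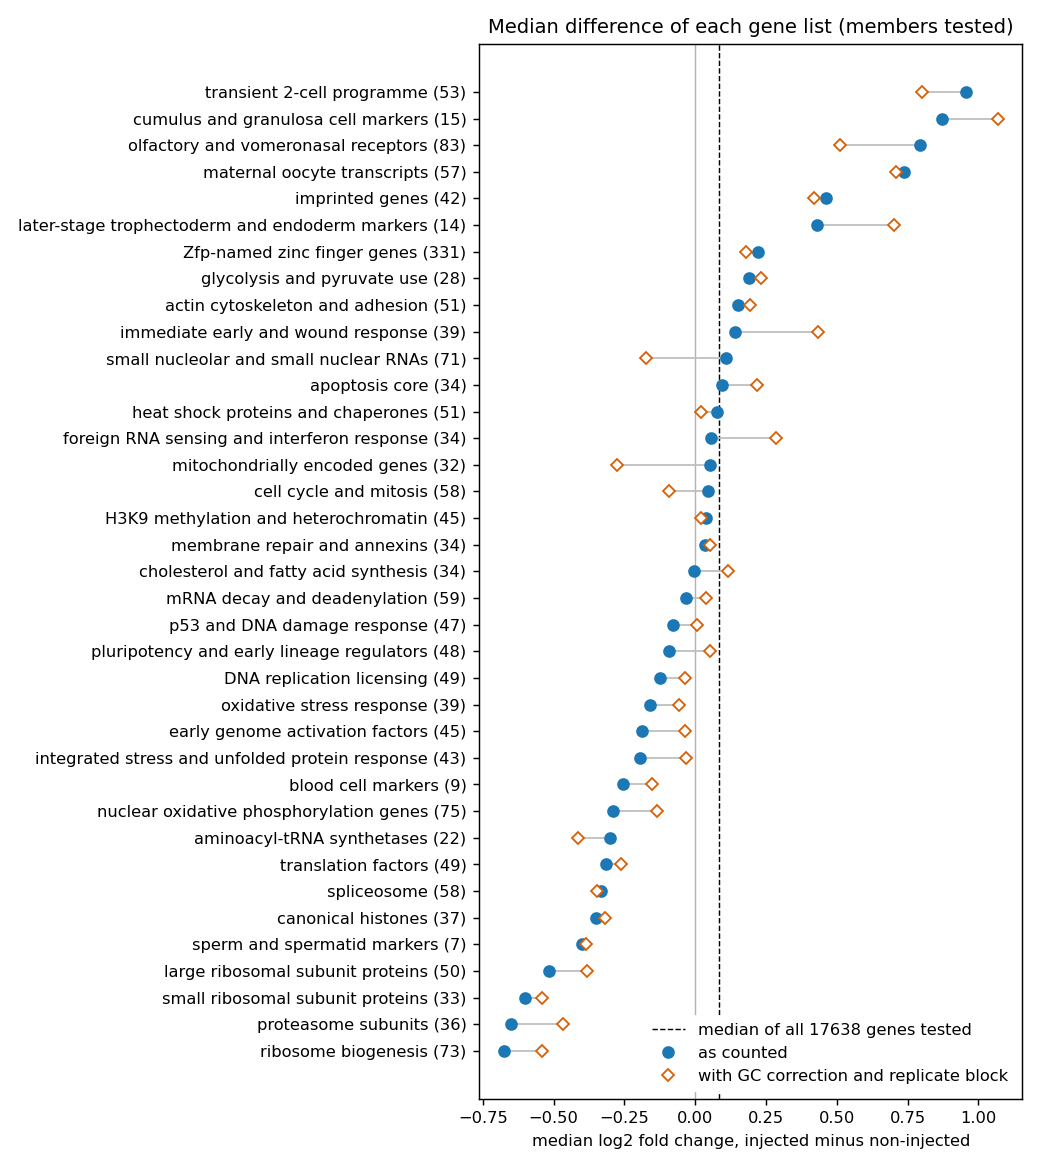
Median log2 fold change, injected over non-injected, for each gene group (filled points), joined to the median after GC correction with a replicate block (open points), beside the all-gene median of 0.09 as a dashed line. The transient 2-cell programme (0.96) and maternal oocyte transcripts (0.74) lie to the right and ribosome biogenesis (-0.68) and the proteasome (-0.65) to the left.

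The promoters of 4 named genes are shown as examples only, picked from either side. BB287469 and Nlrp9a were higher in injected embryos, and Nop2 and Rpsa were lower. Each run is the sense strand from 250 bases before to 50 bases after the gene's start in RefSeq on GRCm38.p6, a later build than the mm9 of the counts. Capitals mark matches, on either strand, to CACGTG (the E-box bound by MYC family factors), TATAAA (the TATA box), TAATCC (the core bound by OBOX and OTX type homeodomains, GGATTA on the other strand) or CCGGAAG (the ETS core, CTTCCGG on the other strand); none of the matches overlap. BB287469 lies at chr12:87816327-87816626, Nlrp9a at chr7:26534773-26535072, Nop2 at chr6:125131633-125131932 and Rpsa at chr9:120127516-120127815, all on the plus strand.
BB287469: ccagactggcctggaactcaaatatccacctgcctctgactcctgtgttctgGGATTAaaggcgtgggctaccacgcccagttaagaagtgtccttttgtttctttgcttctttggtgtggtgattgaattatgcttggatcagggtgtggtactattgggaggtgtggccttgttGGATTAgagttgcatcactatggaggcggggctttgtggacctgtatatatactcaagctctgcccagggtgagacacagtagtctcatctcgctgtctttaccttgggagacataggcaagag
Nlrp9a: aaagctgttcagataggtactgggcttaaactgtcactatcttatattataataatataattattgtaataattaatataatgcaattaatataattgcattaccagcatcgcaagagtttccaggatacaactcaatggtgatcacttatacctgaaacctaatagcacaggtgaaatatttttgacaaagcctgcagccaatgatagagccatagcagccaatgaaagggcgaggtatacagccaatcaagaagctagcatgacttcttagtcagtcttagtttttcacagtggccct
Nop2: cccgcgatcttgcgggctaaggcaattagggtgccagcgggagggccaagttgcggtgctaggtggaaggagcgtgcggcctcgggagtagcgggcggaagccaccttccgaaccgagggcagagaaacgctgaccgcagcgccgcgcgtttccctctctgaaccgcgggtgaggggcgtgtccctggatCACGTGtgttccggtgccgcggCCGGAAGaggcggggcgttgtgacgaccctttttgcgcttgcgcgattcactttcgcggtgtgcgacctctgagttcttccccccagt
Rpsa: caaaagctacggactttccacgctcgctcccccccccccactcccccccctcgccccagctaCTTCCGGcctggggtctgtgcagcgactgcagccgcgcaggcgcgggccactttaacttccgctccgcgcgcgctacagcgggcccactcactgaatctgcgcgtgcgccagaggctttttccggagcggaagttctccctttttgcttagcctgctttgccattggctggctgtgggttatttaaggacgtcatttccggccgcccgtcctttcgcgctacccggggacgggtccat
The BB287469 and Nlrp9a windows hold 4 and 2 CpG dinucleotides, and those of Nop2 and Rpsa hold 35 and 29. Among matched genes of at least 10 CPM the medians did not show this contrast, while other sets given below differed. The medians at that level were 21 CpG where all injected libraries lay above, 22 where they lay below and 23 over all. CCGGAAG was present in 14.5%, 23.3% and 20.6%. Promoters were matched for 75.5%, 79.1% and 78.4% of these sets, each under 80%, so no check was made on them. Over all 27025 RefSeq promoters the median was 7 CpG, and CACGTG was present in 7.24%, TATAAA in 14.2%, TAATCC in 7.16% and CCGGAAG in 9.12%. Of all genes tested only 12297 of 17638 were matched, under 80%, so a check against them is void; those matched had a median of 19 CpG and CCGGAAG in 16%. RefSeq promoters were matched for 63 of 73 ribosome biogenesis genes, with a median of 20 CpG and CCGGAAG in 39.7%. For 30 of 36 proteasome genes the median was 19 CpG and CCGGAAG was present in 30.0%. Fewer than 80% of the maternal and transient 2-cell genes were matched, at 78.9% and 50.9%. Those matched had a median of 3 CpG in each of these groups, and no motif share is given for them. Matched genes at an unadjusted p under 0.05 had a median of 14 CpG where higher and 20 where lower. For these sets 69.2% and 76.1% were matched. These matches describe the letters of the windows only, and no test was made on them.

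In the transient 2-cell programme, 44 of 53 tested members had a positive and 9 a negative log2 fold change. The injected libraries lay above both non-injected ones for 21 members (39.6%, against 8.59% of all genes) and below them for 2 (3.77%, against 8.47%). At an unadjusted p under 0.05, 19 members were higher (35.8%, against 3.90% of all genes). In the blocked fit 11 of 42 members were called higher and 1 lower, against 2.07% and 1.39% of all genes in that fit. Summed over the group, levels were 2976 and 3242 CPM without injection, 3594 and 3399 CPM with Suv39h1mut and 4504 and 4282 CPM with Suv39h1wt, so the groups did not overlap. The median difference from non-injected embryos in mean log2 CPM was 0.93 with Suv39h1wt and 0.62 with Suv39h1mut; both are set against the same 2 libraries. Without non-injected replicate 2, only 4 members were higher at an unadjusted p under 0.05, while the median stayed positive whichever library was left out (0.74 to 1.25). The 1.25 came from leaving out non-injected replicate 1, where all genes were at 0.47. In bulk embryos, fewer cells that carry a transcript and less of it per cell cannot be told apart.

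BB287469 (mm9 chr12:89055025-89059124), a gene of the eIF1A-like family whose members are markers of the 2-cell stage, stood at 16.7, 8.11, 46.6, 30.0, 163 and 49.7 CPM. Each injected library was above both non-injected ones, and Suv39h1wt replicate 1 was more than 3 times as high as any other. The log2 fold change was 2.54 ± 0.74, with an edgeR unadjusted p of 0.00623 and an adjusted p of 0.0198 in the blocked fit; it was 1.77 without Suv39h1wt replicate 1. Gm8300 (chr12:88855266-88859203) stood at 38.3, 27.7, 111, 83.4, 255 and 103 CPM, a log2 fold change of 2.07 ± 0.53. Gm5662 (chr12:89509084-89562433), at 25.2, 13.8, 50.9, 45.9, 154 and 61.7 CPM, had the same order of groups, with a log2 fold change of 2.00 ± 0.60. Gm2046 (chr12:89211972-89218668) stood at 5.84, 2.79, 26.1, 14.8, 91.2 and 34.5 CPM, and the annotated pseudogene Gm8332 (chr12:89488110-89488544) at 0.970, 0.980, 7.49, 6.24, 19.3 and 10.9 CPM. In each of these genes the libraries of injected embryos did not overlap with those of non-injected embryos, which was a condition for naming them.

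All 5 genes lie in one stretch of chromosome 12, from Gm2022 to Gm10264 (mm9 chr12:88833274-89568126), a window chosen after the values were seen. It holds 19 tested genes, 6 of them annotated pseudogenes, and every one of the 19 had a positive log2 fold change, from 0.33 to 3.49 with a median of 2.07. Injected libraries lay above both non-injected ones for 14 of them, and 13 were higher at an unadjusted p under 0.05. The shares over all genes tested were 8.59% and 3.90%. Summed over the window, levels were 377 and 191 CPM without injection, 772 and 525 CPM with Suv39h1mut and 1661 and 668 CPM with Suv39h1wt. The tested genes on either side of the window, Snw1 and Adck1, had log2 fold changes of 0.38 and -0.07. Many genes of this stretch are near-identical copies, and some overlap, so the counting could split their reads and the 19 genes are not independent measurements.

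Zscan4d, a member of the Zscan4 telomere regulators that mark the 2-cell stage, was picked after its values were seen. It stood at 20.9, 6.52, 65.1, 27.9, 114 and 61.2 CPM, all injected libraries being above the non-injected ones, with a log2 fold change of 2.29 ± 0.67 and an adjusted p of 0.0149 in the blocked fit. Its near-identical copy Zscan4c stood at 9.26, 5.42, 29.1, 9.97, 31.2 and 18.98 CPM, with a log2 fold change of 1.60 ± 0.63; reads may have been split between the copies. Pkd2l2 (chr18:34569077-34602445), a gene of the polycystin channel family, stood at 196, 194, 1986, 295, 1070.4 and 407 CPM. Its injected libraries varied widely, the 2 libraries numbered 1 being the highest, and its log2 fold change of 2.27 ± 0.73 did not pass in the blocked fit (adjusted p 0.0734).

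**Figure D3:**
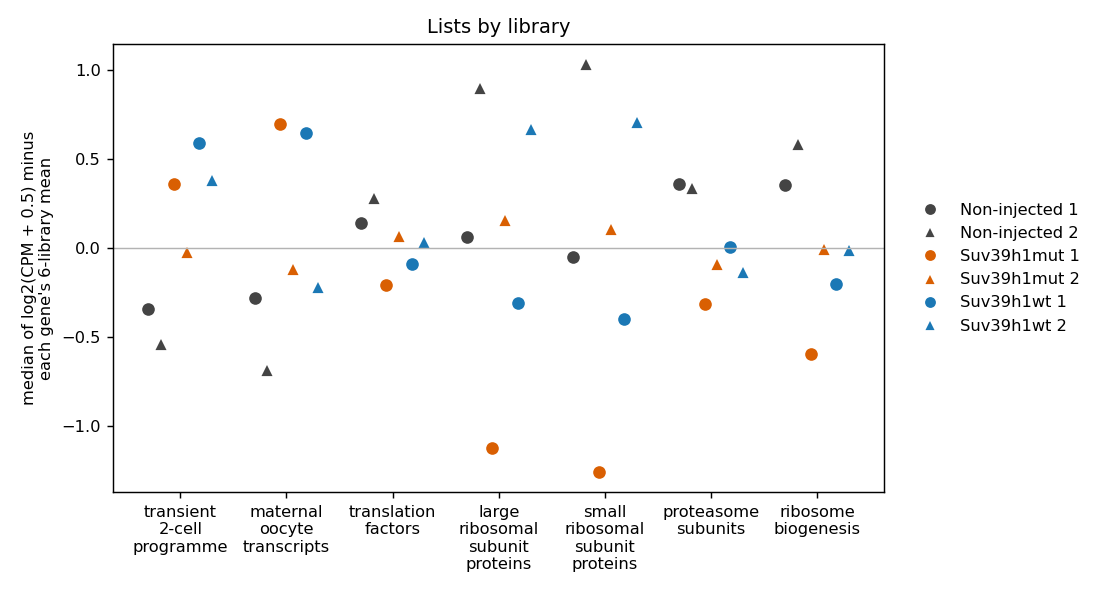
Median over each gene group of log2(CPM + 0.5) minus the gene's mean over the 6 libraries (vertical axis), one point per library, with colours for groups, circles for replicate 1 and triangles for replicate 2. Maternal oocyte transcripts run from -0.69 in non-injected 2 to 0.70 in Suv39h1mut 1, and ribosomal protein groups differ more between the libraries numbered 1 and 2 than the 2-cell group does.

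Of 57 maternal oocyte transcripts, 47 had a positive and 10 a negative log2 fold change. At an unadjusted p under 0.05, 16 were higher (28.1%, against 3.90% of all genes) and 1 was lower (1.75%, against 3.56%). The injected libraries lay above both non-injected ones for 19 (33.3%, against 8.59%) and below for 1 (1.75%, against 8.47%). The blocked fit called 15 of 51 higher and none lower, against 2.07% and 1.39% of all genes in that fit. Their summed level was 10718 and 10171 CPM in non-injected, 20654 and 14302 CPM in Suv39h1mut and 21730 and 15616 CPM in Suv39h1wt libraries. Within each injected group the library numbered 1 had the higher sum, and all 4 were above the non-injected ones. The median differences from the shared non-injected libraries were 0.78 with Suv39h1wt and 0.67 with Suv39h1mut. Without non-injected replicate 1 the group's median log2 fold change was 1.01, where all genes were at 0.47. The number higher at an unadjusted p under 0.05 was 5 without non-injected replicate 2, and the median ran from 0.62 to 1.01 as each library was left out.

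Nlrp9a (chr7:27320042-27360634), an oocyte-expressed member of the NLR family, stood at 66.3, 41.7, 300.0, 119.7, 227 and 166 CPM, a mean of 203 ± 78.1 (SD, n = 4) against 54.0 ± 17.3 (SD, n = 2). Every injected library was above both non-injected ones, a condition for naming it. Its log2 fold change was 1.91 ± 0.46, with an edgeR unadjusted p of 0.00193 and an adjusted p of 0.00763 in the blocked fit. Obox1 (chr7:16097689-16142215), an oocyte homeobox gene, stood at 39.9, 53.5, 256, 87.1, 227 and 105 CPM. The groups did not overlap, and within each injected group the library numbered 1 was well above that numbered 2. Its log2 fold change was 1.85 ± 0.52, and its adjusted p in the blocked fit was 0.0273. Dazl and Oog1 were picked after their values were seen, and Oog1 is also one of the tested genes of the chromosome 12 window above. Dazl, which encodes an RNA-binding protein needed for germ cell development, stood at 70.7, 42.8, 201, 130.1, 209 and 91.6 CPM, and Oog1 at 31.1, 12.5, 84.4, 35.1, 87.2 and 33.8 CPM. The Zp3 gene for a zona pellucida protein, picked in the same way, went the other way, at 43.8, 56.2, 16.2, 31.7, 29.3 and 24.5 CPM.

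The mRNA decay group, which holds deadenylases, decapping and nonsense-mediated decay factors, had a median of -0.03 over 59 genes. Unadjusted p was under 0.05 for 2 higher (3.39%, against 3.90% of all genes) and 3 lower genes (5.08%, against 3.56%). Cnot7 (chr8:41577894-41601201), a catalytic deadenylase subunit of the CCR4-NOT complex, was the higher of those with the smallest p, at 167, 106, 444, 290.4, 567 and 285 CPM. All injected libraries were above the non-injected ones, with a log2 fold change of 1.54 ± 0.42 and an adjusted p of 0.00763 in the blocked fit. Btg4, which brings CCR4-NOT to maternal mRNAs and was picked after its values were seen, stood at 569, 516, 1198, 884, 1448 and 839 CPM, and its adjusted p in the blocked fit was 0.0224. Smg5 (chr3:88140182-88166259), a factor of nonsense-mediated decay, stood at 24.2, 90.0, 11.1, 20.5, 12.9 and 11.6 CPM. Its non-injected libraries differed widely from each other and both were above the injected ones, with a log2 fold change of -2.03 ± 0.54 and an adjusted p of 0.0371 in the blocked fit; it was -0.79 without non-injected replicate 2.

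Of 73 ribosome biogenesis factors, 67 had a negative and 6 a positive log2 fold change. The injected libraries lay below both non-injected ones for 19 (26.0%, against 8.47% of all genes) and above them for 0. At an unadjusted p under 0.05, 14 were lower (19.2%, against 3.56% of all genes) and 0 were higher (against 3.90%). The blocked fit called 6 of 71 lower, against 1.39% of all genes in that fit. Summed levels were 6005 and 6792 CPM without injection, 3930 and 4820 CPM with Suv39h1mut and 4771 and 4809 CPM with Suv39h1wt, so the groups did not overlap. Without non-injected replicate 2 the median log2 fold change was -0.49, where all genes were at 0.35. Only 3 members were lower at an unadjusted p under 0.05 without non-injected replicate 2, and 23 were without Suv39h1wt replicate 2; the median ran from -0.71 to -0.49 as each library was left out.

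Nop2 (chr6:125081901-125094771), a nucleolar RNA methyltransferase acting on the large subunit's RNA, stood at 79.6, 101, 31.1, 43.4, 44.1 and 35.9 CPM. The 4 injected values lay close together, below both non-injected ones. The log2 fold change was -1.22 ± 0.35, with an edgeR unadjusted p of 0.00514 and an adjusted p of 0.0456 in the blocked fit. Rrp12 (chr19:41937342-41970643), which in yeast takes part in the maturation and export of pre-ribosomes, stood at 122, 80.0, 37.4, 44.1, 62.0 and 46.9 CPM. It did not overlap between the groups either, but its adjusted p in the blocked fit was 0.0638.

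Ribosomal protein genes were mostly on the same side, but they depended on single libraries. For the large subunit 43 of 50 genes were negative with a median of -0.52, and for the small subunit 30 of 33 with a median of -0.60. At an unadjusted p under 0.05, 4 (8%) and 2 (6.06%) genes were lower, against 3.56% of all genes. Large subunit genes summed to 3548 and 5857 CPM in non-injected, 1543 and 3320 CPM in Suv39h1mut and 2672 and 5270 CPM in Suv39h1wt libraries. In every group the library numbered 2 was the higher, and the groups overlapped. Without non-injected replicate 2 the median of the large subunit genes was -0.00 and that of the small subunit genes 0.01, where all genes were at 0.35. Without Suv39h1wt replicate 2 the medians of these groups were -0.95 and -1.03, where all genes were at 0.03. Rpsa (chr9:120036884-120041487), which encodes a protein of the small subunit, stood at 114, 219.5, 16.0, 63.5, 22.9 and 111 CPM. Both non-injected libraries were above all injected ones, a condition for naming it, by a narrow margin against Suv39h1wt replicate 2. Its log2 fold change was -1.64 ± 0.67, and its adjusted p was 0.0124 in the blocked fit but 0.267 in DESeq2. Rpl27, Rpl32 and Rps9 had log2 fold changes of -1.70, -1.08 and -1.02, and none passed in the blocked fit. Ribosomal protein genes have many processed pseudogenes, so their counts are uncertain.

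Among 36 tested proteasome genes 25 were negative and 11 positive. The injected libraries lay below both non-injected ones for 10 (27.8%, against 8.47% of all genes) and above for 0, and 8 were lower at an unadjusted p under 0.05 (22.2%, against 3.56%). That count ran from 4 to 11 as each library was left out, and the blocked fit called 2 of 29 lower. Over all genes in the blocked fit, 1.39% were called lower. Summed levels were 1178 and 1268 CPM without injection and 677, 872, 832 and 890 CPM in the injected libraries, with no overlap. The median was -0.35 without non-injected replicate 1, where all genes were at 0.47. Psmc3 (chr2:90894166-90906526), an ATPase of the regulatory particle, stood at 45.9, 35.1, 8.12, 8.44, 6.07 and 18.4 CPM, with a log2 fold change of -1.98 ± 0.53 and an adjusted p of 0.0357 in the blocked fit. Psmb10 (chr8:108459628-108462292), a catalytic subunit of the immunoproteasome, stood at 14.3, 10.4, 1.32, 3.55, 1.44 and 0.362 CPM. In both genes every injected library was below both non-injected ones.

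Translation factors showed a smaller shift, with 33 of 49 genes negative, a median of -0.32 and 12 genes (24.5%, against 8.47% of all genes) below both non-injected libraries. Without non-injected replicate 2 the median was -0.17, and the number lower at an unadjusted p under 0.05, 6 with all libraries, ran from 3 to 8 as each was left out. With all libraries, the 6 lower genes were 12.2% of the group, against 3.56% of all genes. All genes had a median of 0.35 without non-injected replicate 2. The blocked fit called 4 of 47 lower and none higher, against 1.39% and 2.07% of all genes in that fit. Eif4g1 (chr16:20668386-20692957), the scaffold of the cap-binding complex, stood at 181, 234, 67.1, 99.1, 56.1 and 113 CPM, a log2 fold change of -1.31 ± 0.37 with an adjusted p of 0.0149 in the blocked fit. Eif2b4 (chr5:31489931-31495803), a subunit of the exchange factor for eIF2, stood at 81.2, 102, 23.2, 43.9, 30.0 and 50.2 CPM and had an adjusted p of 0.032 in that fit. Neither gene overlapped between injected and non-injected embryos. Of 22 aminoacyl-tRNA synthetases, 17 were negative with a median of -0.30. Among them Kars, the lysyl-tRNA synthetase, stood at 114, 106, 40.9, 57.0, 59.0 and 45.5 CPM, with a log2 fold change of -1.12 ± 0.33. Of 58 spliceosome genes 38 were negative, and 14 lay below (24.1%, against 8.47% of all genes) and 4 above both non-injected libraries (6.9%, against 8.59%). At an unadjusted p under 0.05, 2 were lower (3.45%, against 3.56%). The median of -0.33 was -0.15 without non-injected replicate 2, where all genes were at 0.35. Snrnp70, of the U1 particle, stood at 100.4, 68.2, 35.7, 30.4, 46.2 and 24.6 CPM, and Snrpa1, of the U2 particle, at 121, 84.2, 27.4, 36.5, 36.2 and 65.5 CPM. Both passed in the blocked fit, with adjusted p of 0.0365 and 0.0489.

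The 75 nuclear genes of oxidative phosphorylation had a median of -0.29, with 49 negative and 26 positive. The 32 mitochondrially encoded genes had a median of 0.05. At an unadjusted p under 0.05, 2 of them were higher (6.25%, against 3.90% of all genes). The difference between these groups was not tested, and its order was not stable: with GC correction the medians were -0.13 for the nuclear and -0.38 for the mitochondrially encoded genes. Without non-injected replicate 2 the nuclear median was -0.10, where all genes were at 0.35. Without Suv39h1wt replicate 2 the mitochondrial median was -0.14, where all genes were at 0.03. mt-Co1 (mm9 chrMT:5328-6872), a core subunit of cytochrome c oxidase, stood at 3616, 4937, 11980.2, 8906, 8069.8 and 9888 CPM. Every injected library was above the non-injected ones, with a log2 fold change of 1.18 ± 0.34 and an adjusted p of 0.0225 in the blocked fit. mt-Nd1 (chrMT:2751-3707), a subunit of complex I, stood at 4311, 7759, 10771, 10329, 10360.1 and 12952 CPM, and its adjusted p in that fit was 0.0482.

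Groups for responses that an injection or a foreign mRNA might call on had medians from -0.20 to 0.14, against 0.09 over all genes. Heat shock proteins and chaperones had a median of 0.08 over 51 genes, with unadjusted p under 0.05 for 1 higher and 3 lower genes. The foreign RNA and interferon group had a median of 0.06 over 34 genes, with 2 higher and 2 lower (5.88% each). The p53 and DNA damage group had a median of -0.08 over 47 genes, with 2 higher (4.26%) and 0 lower. The median was 0.14 over 39 genes of the immediate early group, 0.03 over 34 of the membrane repair group and 0.10 over 34 of the apoptosis group. The integrated stress and unfolded protein group had a median of -0.20 over 43 genes and the oxidative stress group -0.16 over 39. Several of these medians moved with single libraries or with GC. Without non-injected replicate 2 that of the foreign RNA and interferon group was 0.86, of the oxidative stress group 0.35, of the p53 group 0.23, of the membrane repair group 0.30 and of the apoptosis group 0.37, where the median of all genes was 0.35. The integrated stress group was at 0.12 without non-injected replicate 1, where all genes were at 0.47. With GC correction the foreign RNA and interferon group was at 0.31, and with the replicate block as well the immediate early group was at 0.43, against 0.14 and 0.11 over all genes. The immediate early group was at -0.15 without Suv39h1wt replicate 2.

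Single members of these groups stood apart by library. Stat2, a signal transducer of the type I interferon response, stood at 33.7, 66.8, 11.4, 19.9, 6.07 and 25.1 CPM, lower in every injected library, with a log2 fold change of -1.69 ± 0.58 and an adjusted p of 0.0337 in the blocked fit. Trim25, a ubiquitin ligase of the RIG-I pathway, stood at 71.8, 104, 43.2, 39.2, 40.5 and 58.6 CPM and did not pass there (adjusted p 0.103). Chek1, the checkpoint kinase of the DNA damage response, stood at 93.3, 71.5, 229, 139, 187 and 172 CPM, above the non-injected libraries in every injected one, with an adjusted p of 0.0273 in the blocked fit. Rrm2b, a p53-induced ribonucleotide reductase subunit, stood at 185, 138, 319.6, 260.1, 318 and 224 CPM, without overlap, and had an adjusted p of 0.0507 there. Pgd, an enzyme of the pentose phosphate pathway, was at 63.4, 61.6, 19.3, 24.7, 23.2 and 33.2 CPM, and Prdx2, a peroxiredoxin, at 55.9, 83.8, 100.4, 175, 135 and 166 CPM. Pgd was lower and Prdx2 higher in every injected library, with adjusted p of 0.0489 and 0.0373 in the blocked fit. Tnfaip3, an inhibitor of NF-kappaB signalling, had a log2 fold change of -6.13 that rested on non-injected replicate 2, at 11.97 CPM against 0.128 CPM in the other non-injected library and at most 0.230 CPM with injection. Dnajb4, a co-chaperone of the DnaJ family, stood at 16.5, 12.002, 150.5, 35.5, 122 and 18.95 CPM, where the libraries numbered 1 of both injected groups were far above those numbered 2.

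Cell cycle, replication, early genome activation, pluripotency and H3K9 groups also had medians between -0.19 and 0.04. In the cell cycle group, Plk4, the kinase of centriole duplication, stood at 175, 133, 384, 322, 328 and 223 CPM, and Mad2l1, of the spindle checkpoint, at 83.2, 94.4, 200.1, 163, 189.7 and 135 CPM. Neither overlapped between the groups, and Plk4 passed in the blocked fit (adjusted p 0.0275) where Mad2l1 did not (0.0521). In the replication group Mcm3, a subunit of the replicative helicase, stood at 39.1, 85.1, 19.4, 29.0, 22.2 and 13.2 CPM, lower in every injected library, and its adjusted p in that fit was 0.054. Among 45 genes of H3K9 methylation, unadjusted p was under 0.05 for 0 higher and 4 lower ones (8.89%, against 3.56% of all genes). Ehmt1, which encodes the methyltransferase GLP, stood at 28.0, 58.8, 21.5, 20.0, 16.4 and 22.5 CPM. Its partner Ehmt2, or G9a, stood at 8.75, 32.6, 2.91, 3.91, 2.57 and 12.2 CPM, and here the groups overlapped through Suv39h1wt replicate 2. Kdm5b, a demethylase of histone H3 lysine 4 picked after its values were seen, stood at 531, 629.8, 206, 353, 267 and 463 CPM, with a log2 fold change of -0.85 ± 0.37.

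The genes named for the smallest p or the largest well-read difference numbered 18 on the higher side and 17 on the lower side. They were chosen on these same libraries, and only genes without overlap between injected and non-injected libraries were eligible. Their values, their lack of overlap and their p are therefore a description. Taf9b (chrX:103402222-103416497), which encodes a TBP-associated factor, stood at 55.7, 40.4, 223, 121, 182 and 126 CPM, with a log2 fold change of 1.76 ± 0.41 and an edgeR unadjusted p of 0.00146. Tram1 (chr1:13554783-13579945), a protein of the translocon of the endoplasmic reticulum, stood at 56.2, 62.4, 146, 162, 139 and 179 CPM, a log2 fold change of 1.40 ± 0.34. In both genes every injected library was well above both non-injected ones. The zinc finger genes Zfp735 and Zfp616, both on chromosome 11, stood at 91.9 to 119 CPM and 76.3 to 117 CPM in injected and at 23.2 and 39.5 CPM and 31.8 and 34.2 CPM in non-injected libraries. Mapre2 (chr18:23910834-24052362), a microtubule end-binding protein, stood at 26.9, 22.1, 84.8, 53.2, 142 and 86.2 CPM. Tspyl4, Optn (the autophagy receptor optineurin) and Fetub (fetuin-B, which in the mouse keeps the zona pellucida from hardening too early) were near or below 3 CPM in the non-injected libraries. Their injected libraries lay at 10.3 to 21.4, 6.61 to 18.2 and 3.19 to 7.11 CPM, with log2 fold changes of 2.75 ± 0.67, 3.56 ± 0.85 and 5.09 ± 1.24. Rassf6, of the Ras association domain family, had 0 counts in both non-injected libraries and 1.67 to 6.30 CPM in the injected ones, at least 44.3-fold higher against a floor of 3 counts per library. Gm6763, already counted in the transient 2-cell programme and in the summed 2-cell markers, stood at 15.2, 23.8, 67.3, 35.2, 133 and 157 CPM.

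On the lower side Bcorl1 (chrX:45694535-45761226), a BCOR-like corepressor, stood at 48.7, 81.7, 16.2, 18.8, 21.9 and 17.4 CPM, with a log2 fold change of -1.81 ± 0.40 and an edgeR unadjusted p of 0.000902. Smarcd1, a subunit of the SWI/SNF remodelling complex, stood at 8.67, 35.7, 3.33, 1.08, 1.44 and 0.874 CPM. Its non-injected libraries differed more from each other than its injected ones did. Zfp259 (chr9:46081147-46090726), a zinc finger protein that binds the elongation factor eEF1A, stood at 118, 84.1, 28.3, 37.3, 42.0 and 23.1 CPM. Ubxn1, an adaptor of the ATPase p97, stood at 132, 131, 29.7, 75.5, 29.2 and 39.7 CPM, and Rprd1b, which binds the tail of RNA polymerase II, at 114, 73.3, 36.8, 39.0, 32.4 and 13.3 CPM. For these 3 genes the lowest non-injected library was above the highest injected one, as their selection required. Ube2o, a ubiquitin-conjugating enzyme, was at 79.6 and 211 CPM without and 36.9 to 70.2 CPM with injection, and Nosip, a ubiquitin ligase, at 23.4 and 59.6 CPM against 8.43 to 11.1 CPM. Pdp2, a phosphatase that activates pyruvate dehydrogenase, stood at 42.5, 188, 15.8, 38.1, 18.2 and 16.4 CPM. Without non-injected replicate 2 the log2 fold changes were -2.36 for Smarcd1, -1.30 for Nosip, -0.94 for Pdp2 and -0.68 for Ube2o. AI462493 and 9330160F10Rik, without a role given here, stood at 15.8 and 17.9 CPM and at 42.9 and 21.1 CPM without injection, and at most at 1.57 and 4.18 CPM with it. Mpv17l2, of the inner mitochondrial membrane, stood at 4.41 and 18.5 CPM without injection and at most at 0.825 CPM with it. Grin2c, an NMDA receptor subunit, had 0 counts in all 4 injected libraries against 1.66 and 4.71 CPM, at least 47.4-fold lower against a floor of 3 counts per library. Gpr39, Cdhr4 and Tmem150b were also near 0 in every injected library, at up to 0.0383, 0.173 and 0.121 CPM, and at 1.26 to 13.0 CPM in the non-injected ones.

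**Figure D4:**
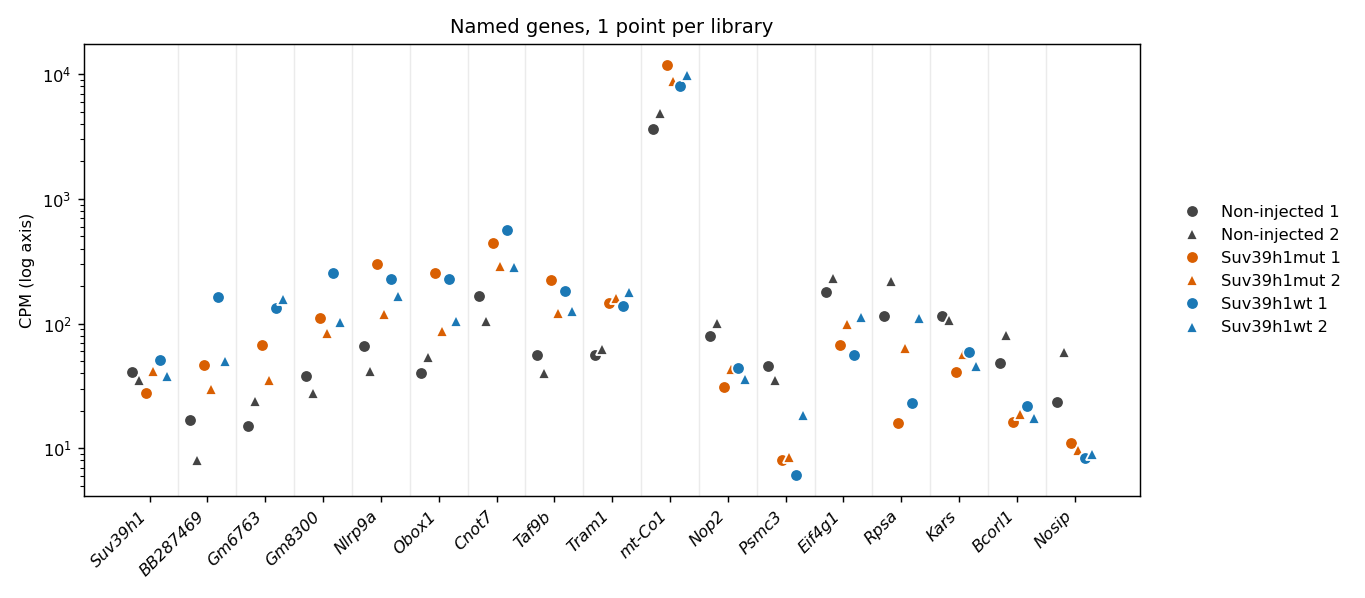
CPM (vertical axis, log scale) of 17 named genes, one point per library, with colours for non-injected, Suv39h1mut and Suv39h1wt embryos, circles for replicate 1 and triangles for replicate 2. Nlrp9a, for example, lies at 41.7 and 66.3 CPM without injection and from 119.7 to 300.0 CPM with it, and Nop2 at 79.6 and 101 CPM against 31.1 to 44.1 CPM.

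Suv39h1wt and Suv39h1mut libraries were set against each other to see whether the pooled group was uniform. No gene passed an adjusted p of 0.05 in edgeR, and 480 were at an unadjusted p under 0.05 (2.72%); DESeq2 called 44. Of the 18 genes named on the higher side, 3 differed between the mRNAs at an unadjusted p under 0.05, and of the 17 on the lower side, 0 did. Those 3 were Gm2046, BB287469 and Gm6763, with log2 fold changes, Suv39h1wt over Suv39h1mut, of 1.62 ± 0.69, 1.47 ± 0.66 and 1.502 ± 0.51. All 3 were higher in both groups than without injection, which the rule that named them required.

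The direction of the difference also moved with base composition. Among the genes of at least 10 CPM with a known transcript GC content, the Spearman correlation across 6708 genes between GC and log2 fold change was -0.39; genes are not independent replicates, and all share the same 6 libraries. When these genes were split by GC into 5 bins of nearly equal size, the lowest bin (31.9% to 43.0%) was on the higher side. Its median log2 fold change was 0.37, and the injected libraries lay above both non-injected ones for 258 of 1342 genes and below for 36. In the highest bin (53.7% to 73.7%) the median was -0.40, with 32 above and 234 below. Over all genes of at least 10 CPM, 10.1% lay above and 9.96% below. The libraries of one group also differed along GC: the same correlation for library 2 minus library 1 was 0.39 for non-injected, 0.24 for Suv39h1mut and 0.31 for Suv39h1wt embryos. The median transcript GC was 42.0% for the 18 genes named on the higher side and 54.2% for the 17 on the lower side. After correction for GC the group medians were 0.84 for the transient 2-cell programme, 0.66 for maternal oocyte transcripts, -0.52 for ribosome biogenesis and -0.56 for the proteasome. With the library number as a block as well, the corrected fit over genes of at least 10 CPM called 36 genes higher and 11 lower, in place of 141 and 95. The part of amplification or RNA quality in this relation was not tested.

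**Figure D5:**
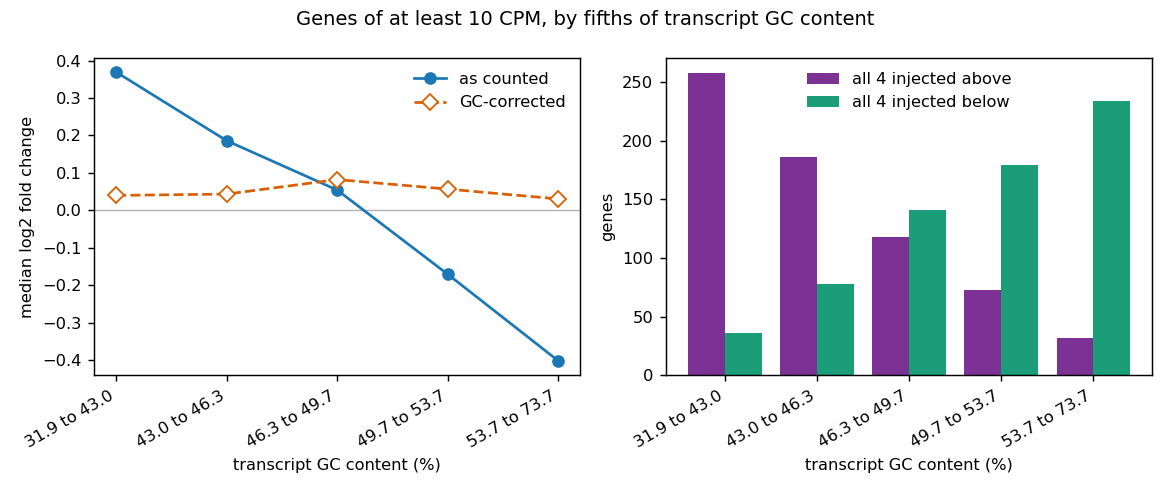
Median log2 fold change, injected over non-injected (vertical axis), in 5 bins of genes of at least 10 CPM by transcript GC content (horizontal axis, percent), before and after correction for GC, beside bars for the number of genes with all 4 injected libraries above or below both non-injected ones. Before correction the medians fall from 0.37 in the lowest bin to -0.40 in the highest, and after it they lie between 0.03 and 0.08.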

How the data were processed

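Total RNA of 2-cell embryos was measured in 6 libraries, 2 in each of 3 groups. Per the submitters' processing notes, the tools were CASAVA 1.8.2, TopHat2 2.0.14, Bowtie and HTSeq 0.6.1, and the genome build was mm9. The annotation release and strand setting are not given in the sources used here, so counts of genes that overlap, run antisense or have near-identical copies are uncertain. The deposited gene counts are raw, per the file headers; 0 sample columns were unmapped, and 0 of its lines name no gene. The signal values, the authors' deposited normalized counts, gave gene length only. Deposited tables of changed genes and repeats were not used.

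Raw counts were tested with R 4.3.3, edgeR 4.0.16 (robust quasi-likelihood F test, TMM scaling, filterByExpr with a minimum count of 10, injection status as the factor, 4 residual degrees of freedom), limma 3.58.1, DESeq2 1.42.0 and the package data.table, version 1.17.8, with Benjamini-Hochberg adjustment over all genes tested. The biological coefficient of variation was 0.886. Suv39h1wt and Suv39h1mut were compared in a 3-group edgeR fit. Fits over all genes tested were also run on simulated counts, drawn without the shared deviation by library number or the GC relation. The blocked fit over genes of at least 10 CPM was not among them, and no outcome is given here. Log2 fold changes carry SE from edgeR, and group medians per mRNA use log2(CPM + 0.5). GC content is that of the longest transcript, and its correction used a loess curve with a span of 0.3.

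The members, the 37 gene lists and the tests were chosen with earlier results of these data known. Genes named are Suv39h1, the 12 with the smallest p per direction among non-overlapping genes of at least 1 CPM, the 6 with the largest differences per direction among non-overlapping genes of at least 50 CPM, and the 2 members of each list with the smallest p, 103 in all; some of them are not described. The labels do not say what replicate numbers mark. Between groups, libraries with the same number deviated together from their group's mean (correlation over genes 0.23, 0.21 and 0.27, each over 0.1), and the number was therefore used as a block in an alternative. Alternatives were other scalings, filters and tools, the replicate block, GC correction, 1 mRNA alone and leaving out each library.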

Additional observations from a re-analysis of the deposited data

Results flagged for a closer look

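Among the 103 named genes, 9 had 1 injected library far from the other 3, by a gap measured against the whole range of the injected libraries; chance alone flags about 1 in 20 such groups. Suv39h1wt replicate 1 stood apart in 3 genes of the chromosome 12 stretch. BB287469 was at 163 CPM against 49.7 CPM for the nearest injected library, Gm8300 at 255 CPM against 111 CPM, and Gm5662 at 154 CPM against 61.7 CPM. These 3 genes share sequence and position and are not independent. Suv39h1wt replicate 2 stood apart for Ehmt2, at 12.2 CPM against 3.91 CPM, for mt-Nd1, at 13000 CPM against 10800 CPM, both rounded to 3 digits, and for the small nuclear RNA U2, at 5.42 CPM against 0.846 CPM. Suv39h1mut replicate 1 stood apart for the zinc finger gene Zfp735, at 119 CPM against 93.6 CPM. Suv39h1mut replicate 2 stood apart for Pdp2, at 38.1 CPM against 18.2 CPM, and for the spermatid gene Oaz3, at 3.07 CPM against 0.632 CPM.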

How the results depend on the processing

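No gene passed an adjusted p of 0.05 in edgeR whichever single library was left out (0 to 0), but other tools and filters gave calls. The adjusted count was 1 without a filter (0 higher, 1 lower), 209 in DESeq2 (136 and 73), 236 in the fit over genes of at least 10 CPM with a replicate block (141 and 95), 47 with GC correction added to it (36 and 11) and 932 in DESeq2 with a replicate block (516 and 416). The last 3 of these were chosen after seeing the data. With the replicate block alone edgeR again called 0 genes, while unadjusted p was under 0.05 for 1120 higher and 970 lower genes. Higher genes at that threshold numbered 334 over genes of at least 10 CPM, 1235 in DESeq2, 397 with Suv39h1wt libraries only, 1081 with GC correction and the block and 1724 in DESeq2 with the block, and 406 to 889 as each library was left out. Lower genes numbered 1394 without a filter, 335 over genes of at least 10 CPM and 1483 in DESeq2 with the block, and 393 to 862 as each library was left out. For Suv39h1wt against Suv39h1mut the adjusted count was 18 without a filter, 44 in DESeq2, 18 without Suv39h1wt replicate 1, 1 without Suv39h1mut replicate 1 and 0 to 18 over all libraries left out. Injected libraries, which were deeper, had 549.75 more genes with a read on average. After thinning to the smallest library the difference was 147.75 (exact two-sided permutation p of 0.8). Before thinning it was -113 without Suv39h1mut replicate 1, with a range up to 1182.33 as each library was left out. Hba-a1 turned to 0.21 with Suv39h1wt libraries only (-1.18 to 0.022 as each library was left out) and Suv39h1 to -0.13 with Suv39h1mut libraries only (-0.073 to 0.24); Hist1h2bm ran from -3.93 to 0.91. The cause was not tested. The all-gene median was 0.09, and 0.47 and 0.35 without non-injected replicate 1 or 2. With 2 non-injected libraries, the spread of that group rests on a single difference, and genes of low count could not be told apart at this depth.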

Other observations

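Among genes of at least 10 CPM, the injected libraries lay above both non-injected ones for 10.1% and below for 9.96%. Of 89 lincRNA genes the injected libraries lay above both non-injected ones for 15 and below for 2, with a median log2 fold change of 0.40. Of 30 antisense genes they lay above for 6 and below for 1, with a median of 0.44, and of 5 miRNA genes for 0 and 0, with a median of -0.38; reads of an antisense gene and of its partner may not be told apart. Olfactory and vomeronasal receptor genes, which are read at very low levels in embryos, had a median of 0.79 over 83 genes. It ran from 0.51 to 1.88 as each library was left out, the latter without non-injected replicate 1, where all genes were at 0.47. Unadjusted p was under 0.05 for 3 higher (3.61%, against 3.90% of all genes) and 1 lower (1.2%, against 3.56%). The 42 imprinted genes had a median of 0.46, with 1 higher (2.38%) and 2 lower (4.76%) at that threshold. Their median was 0.07 without Suv39h1wt replicate 2 and -0.04 with Suv39h1mut libraries only. Plagl1, an imprinted zinc finger gene, stood at 12.2 and 8.57 CPM without injection, 14.6 and 28.6 CPM with Suv39h1mut and 21.1 and 42.5 CPM with Suv39h1wt, without overlap. The 331 genes named Zfp for zinc fingers had a median of 0.22. Of them 14 were higher (4.23%) and 9 lower (2.72%), near the shares of 3.90% and 3.56% over all genes. In glycolysis the median was 0.19 over 28 genes. It was 0.07 without Suv39h1wt replicate 2 and 0.56 without non-injected replicate 2, where all genes were at 0.03 and 0.35. The members of this group with the smallest p went opposite ways. Hk2, a hexokinase, stood at 5.82 and 5.36 CPM without and 10.9 to 24.8 CPM with injection, and Pkm2, a pyruvate kinase, at 100.3 and 149 CPM without and 37.0 to 70.1 CPM with it.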
